A study of Mus musculus with 20 samples.

Results

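Cytosolic ribosomal protein genes were followed in BV-2, an immortalized microglial cell line from the mouse, and in a BV-2 derivative labelled as an RGS10 knockout. RGS10 is a regulator of G protein signalling, and migration of BV-2 cells is the process named in the series title. Members were all protein-coding genes whose symbol starts with Rpl or Rps followed by a digit, with Rplp0, Rplp1, Rplp2 and Rpsa added and with pseudogenes and the Rps6k kinases left out. The rule took 86 of the 56941 rows of the count table and used no expression value. Of these, 46 were large subunit genes, 31 were small subunit genes, and 9 were near copies or other symbols that the rule caught (Rpl3l, Rpl7l1, Rpl10l, Rpl22l1, Rpl36al, Rpl39l, Rps27l, Rps27rt and Rps19bp1). The rule left out 9 kinase rows and 296 rows with a pseudogene symbol or a gene type other than protein-coding.

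The 4 groups were wild-type cells with vehicle (medium), wild-type cells with interferon gamma (IFNγ, 10 ng/mL), knockout cells with vehicle and knockout cells with IFNγ, all for 48 h. Each group held 5 libraries of poly(A)-enriched RNA, labelled as biological replicates. Replicates 1 to 3 formed batch 1, replicate 4 batch 2 and replicate 5 batch 3, so batches 2 and 3 held 1 library of each group. Whether the knockout line is a single clone is not given in the sources used here.

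Ribosomal proteins and ribosomal RNA together build the small subunit, which decodes the messenger RNA, and the large subunit, which joins amino acids. Most of their messengers begin with a run of pyrimidines at the cap, the 5′ terminal oligopyrimidine (TOP) tract, through which mTOR and Larp1 control their translation and stability as a group. IFNγ is the cytokine that activates macrophages and microglia for defence, and it is known to restrain mTORC1 and translation in human macrophages.

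The start regions of these genes were read from the RefSeq promoter table (GRCm38.p6), which held 66 of the 86 members with 78 starts. A tract, defined as a C followed by at least 6 pyrimidines and beginning within 20 bases of the annotated start, was present at 39 of the 78 starts (50%), against 21.2% of all 32851 starts in the table. The lines below run from 30 bases before the start to 30 bases after it, 5′ to 3′ on the gene's strand, with the tract in capitals. They are shown for members named below, so that their responses can be read beside their starts.
Rps6 (chr4:86857338-86857397, minus strand): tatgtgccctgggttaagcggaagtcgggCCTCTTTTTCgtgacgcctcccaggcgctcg
Rpl14 (chr9:120571487-120571546, plus strand): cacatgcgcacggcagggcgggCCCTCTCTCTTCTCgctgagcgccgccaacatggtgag
Rps18 (chr17:33955636-33955695, minus strand): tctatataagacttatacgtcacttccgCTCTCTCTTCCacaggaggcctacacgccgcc
Rplp2 (chr7:141447621-141447680, plus strand): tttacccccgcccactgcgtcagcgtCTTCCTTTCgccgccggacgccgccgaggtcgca
Rpl22l1 (chr3:28805478-28805537, plus strand): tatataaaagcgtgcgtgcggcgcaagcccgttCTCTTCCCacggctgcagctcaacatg
Rps4x (chrX:102189362-102189421, minus strand): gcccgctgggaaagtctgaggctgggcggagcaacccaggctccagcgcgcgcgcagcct
Rps23 (chr13:90923092-90923151, plus strand): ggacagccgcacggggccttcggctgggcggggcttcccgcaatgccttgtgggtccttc
Rps4x and Rps23 have no such tract in these windows, which says only that these letters are not there and draws on annotated, not measured, starts. In the 300 bases around the start (250 before to 50 after), searched on both strands, CCGGAAG (the core bound by ETS factors) was present at 34.6% of member starts and 8.86% of all starts. AAGATGGC (a YY1-type motif) was present at 10.3% and 2.75%, CACGTG (an E box) at 10.3% and 7.15%, TATAAA at 8.97% and 13.6%, and TTCCNGGAA (a STAT-type element) at 1.28% and 1.15%. A motif was counted also where it overlapped another. Members with a tract at any start (36 tested) had a median log2 difference with IFNγ in wild-type cells of −0.90 (quartiles −1.03 and −0.66) and those without one (27 tested) of −0.82 (−1.07 and −0.52). In knockout cells the medians stood in the other order, −0.36 with a tract and −0.42 without, and the quartile ranges overlapped widely in both lines.

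Total counts per library ran from 15866749 to 29157740. Rgs10 itself was read in every library, at 55.1 to 73.0 CPM (counts scaled to a common library size) in wild-type vehicle libraries and 22.6 to 34.6 CPM in knockout vehicle libraries, which did not overlap. With IFNγ it was at 22.2 to 50 CPM in wild-type and 15.5 to 50.5 CPM in knockout libraries, which did. All 10 microglia and macrophage markers were read in each group, with sums from 2510 to 6960 CPM. Astrocyte, fibroblast and lymphocyte markers summed to at most 0.597 CPM in any library, neuronal markers to at most 4.52 CPM and oligodendrocyte markers to at most 6.68 CPM. Endothelial markers were higher, at 25.2 to 59.1 CPM in wild-type and 32.7 to 365 CPM in knockout libraries. The IFNγ libraries of batches 2 and 3 stood apart from the rest. The nuclear RNA Malat1 was at 955 to 1510 CPM in these 4 libraries, at 355 to 386 CPM in wild-type cells with IFNγ in batch 1, and at 51.4 to 166 CPM in the others. Their library size factors (TMM) were 0.635 to 0.892, against 1.01 to 1.12 in the other 16.

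The ribosomal protein genes held 6.2% ± 0.90 of all counts in wild-type vehicle libraries and 2.83% ± 0.33 in wild-type IFNγ libraries (SD, n = 5 each). The 5 vehicle libraries held 5.62%, 5.15%, 5.98%, 7.13% and 7.12% (replicates 1 to 5), and the 5 IFNγ libraries 2.76%, 2.99%, 3.08%, 3.03% and 2.29%. Every wild-type IFNγ library lay below every vehicle library. In knockout cells the share was 6.26% ± 0.33 with vehicle and 4.38% ± 1.1 with IFNγ (SD, n = 5 each). The 5 knockout vehicle libraries held 6.29%, 5.97%, 5.95%, 6.77% and 6.33%, and the 5 knockout IFNγ libraries 4.88%, 4.43%, 4.35%, 5.6% and 2.66%. Batch 2 gave the highest and batch 3 the lowest share among the knockout IFNγ libraries, yet all 5 lay below the knockout vehicle libraries. Since these are bulk libraries, fewer cells making these messengers and less messenger per cell cannot be told apart. A share of counts also moves when other genes take more reads, and the 10 largest genes of a library held 17.1% and 14.7% of counts in wild-type cells with IFNγ in batches 2 and 3, against 7.60% to 7.86% in batch 1.

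**Figure D1:**
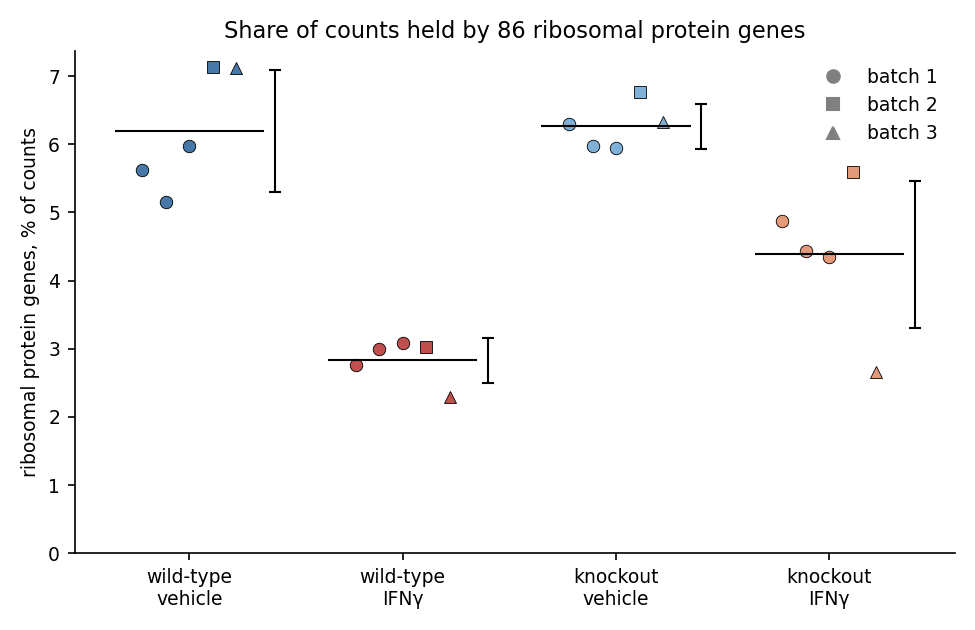
Percent of all counts held by the 86 ribosomal protein genes in each of the 20 libraries, by group, with the batch as the marker shape, the horizontal line as the group mean and the bar as 1 SD. Wild-type IFNγ libraries sit between 2.29% and 3.08%, below all vehicle libraries, and knockout IFNγ libraries spread from 2.66% to 5.6%.

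The first comparison asked how wild-type cells changed with IFNγ. Ribosomal protein messengers fell nearly throughout both subunits, by 1.32-fold to 3.06-fold among the subunit genes called. Differences are given as the fitted log2 difference ± its standard error from edgeR, and genes were called at an edgeR adjusted p under 0.05. Of the 83 members that passed the filter on low counts, 72 were called lower and 2 higher, whereas 29.9% of all 13755 tested genes were called lower and 29% higher. The median log2 difference was −0.87 over the members and 0.01 over all tested genes. In the small subunit 27 of 31 genes were called lower, with a median of −1.02, and in the large subunit 42 of 45, with a median of −0.82. Rps10 and Rps24 were among the 4 small subunit genes not called.

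The members with the largest falls were large subunit genes. Rpl14 stood at 1050, 966, 1110, 1270 and 1280 CPM in wild-type vehicle libraries and at 378, 408, 436, 382 and 269 CPM with IFNγ. The groups did not overlap, and the log2 difference was −1.61 ± 0.18 (edgeR adjusted p = 3.5e-07), the largest fall among the members. Rpl3, a core protein close to the peptidyl transferase centre, was at 1130, 1130, 1250, 1590 and 1730 CPM with vehicle and 344, 365, 379, 786 and 558 CPM with IFNγ. It fell by 1.52 ± 0.22 on the log2 scale (edgeR adjusted p = 8.7e-06) with no overlap, and its IFNγ level was highest in batch 2. Rpl10a, which forms the stalk beside the exit site, fell by 1.54 ± 0.22 (edgeR adjusted p = 6.9e-06).

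Most small subunit genes fell. Rps6, the protein phosphorylated by S6 kinase, was at 619, 591, 659, 676 and 635 CPM with vehicle and 215, 262, 239, 329 and 219 CPM with IFNγ. Every IFNγ library lay well below every vehicle library, and the log2 difference was −1.35 ± 0.15 (edgeR adjusted p = 2.7e-07). Rps4x, encoded on the X chromosome, was at 1470, 1370, 1480, 1800 and 1790 CPM with vehicle and 522, 531, 550, 882 and 499 CPM with IFNγ. Its fall of 1.43 ± 0.14 on the log2 scale (edgeR adjusted p = 5.1e-08) stood beside that of Rps18 (−1.40 ± 0.18), a protein of the small subunit head; the start of Rps18 carries a tract and that of Rps4x does not. Among other small subunit genes, Rps19, whose human counterpart is mutated in Diamond-Blackfan anaemia, had a log2 difference of −1.15 ± 0.16. Rpsa, also known as a laminin receptor, had −1.1 ± 0.14, Rps3, which lines the messenger entry channel, −0.87 ± 0.13, and Rps27a, made as a fusion with ubiquitin, −0.86 ± 0.15, and all were called.

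Rpl5 and Rpl11, which bind a small ribosomal RNA and in that form can hold back Mdm2, changed by −1.09 ± 0.13 and −0.98 ± 0.17 on the log2 scale, both called lower. Rpl10, which joins the large subunit last and is needed for subunit joining, was at −0.69 ± 0.14, and Rpl26 at −0.75 ± 0.15, both called lower. Rpl13a is known from human monocytic cells to leave the ribosome after IFNγ and to silence inflammatory messengers. Its row held 7882 reads in all, and its log2 difference of −0.48 ± 0.20 was just past the threshold (edgeR adjusted p = 0.049) and lost its call in 18 of 32 alternative settings. Rpl39, a small protein lining the exit tunnel, was also just past it (−0.40 ± 0.17, edgeR adjusted p = 0.048) and lost its call in 14 of 32.

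In the stalk that recruits translation factors to the large subunit, Rplp0 and Rplp2 were called lower and Rplp1 was not. Rplp0 had the highest mean level of all members in CPM (2280) and Rpl36al the lowest of those tested (0.834). Per kilobase of all annotated exons of a gene joined, Rplp1 had the highest value of all members. It was 2000 CPM per kilobase, against 1370 for Rplp0 and 234 for Rplp2. That length takes in every annotated transcript and can exceed the messenger, so these values do not rank messenger levels. Rplp2 was called lower with IFNγ in wild-type cells (−0.84 ± 0.15, edgeR adjusted p = 0.00012) and so was Rplp0 (−0.52 ± 0.15, edgeR adjusted p = 0.0063). Rplp1 was at 870, 811, 1090, 1240 and 1250 CPM with vehicle and 724, 711, 787, 1610 and 1060 CPM with IFNγ, and was not called (−0.16 ± 0.15, edgeR adjusted p = 0.37). Its groups overlapped on these TMM-scaled levels. The batch 2 IFNγ library, whose size factor was 0.635, was the highest of all 10 on this scale, a rank that depends on that factor. The batch 1 IFNγ libraries were lower than their controls. Whether Rplp1 differs from Rplp0 or Rplp2 in its response was not tested.

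Other subunit members with high counts were also not called in this comparison. They were Rpl19 (−0.27 ± 0.15), Rps28 (−0.34 ± 0.20), Rps29 (−0.07 ± 0.20), Rps24 (−0.06 ± 0.16) and Rpl41 (0.18 ± 0.18), the shortest ribosomal protein, all named after their values were seen. Rpl41 was at 410, 338, 485, 427 and 466 CPM with vehicle and 335, 393, 395, 817 and 548 CPM with IFNγ. Its IFNγ libraries of batches 2 and 3, with size factors of 0.635 and 0.764, were the highest of the 10 on this TMM-scaled measure. Those of batch 1 lay at 335 to 395 CPM, toward the low end of the controls, with the lowest just below them. The 2 members called higher were paralogs with few reads, Rpl22l1 (0.82 ± 0.28, edgeR adjusted p = 0.017) and the muscle paralog Rpl3l (0.95 ± 0.35, edgeR adjusted p = 0.027). Without the near copies no member was called higher. Rps10, from a row with few reads, was not called (0.84 ± 0.38).

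With plain library totals in place of size factors, 76 members were called lower and none higher, but the median of all tested genes then moved to −0.21 and that of the members to −1.12. In batches 2 and 3 alone, with 2 libraries a group, 37 members were called lower. The shares of all tested genes called lower in these fits are not given here, so neither count was set against a background. Of 11 nuclear and mitochondrial transcripts kept as signs of RNA quality, 4 (36.4%) were called higher and none lower with IFNγ in wild-type cells. Of all tested genes 29% were called higher and 29.9% lower, and the part of these transcripts in the result was not tested.

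The same question in knockout cells gave smaller differences. Of the 83 members, 39 were called lower and none higher, by 1.27-fold to 1.71-fold, against 21.8% of all tested genes called lower and 21.4% higher. The median log2 difference was −0.37 over the members and −0.02 over all genes. Small subunit genes made up 19 of the calls (of 31) and large subunit genes 18 (of 45). All 39 were also among the 72 called lower in wild-type cells, that is 54.2% of those.

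Rps4x, Rpl3 and Rpl36a had the largest falls in knockout cells. Rps4x was at 1240, 1210, 1180, 1450 and 1200 CPM with vehicle and 804, 770, 775, 768 and 543 CPM with IFNγ, with no overlap and a log2 difference of −0.78 ± 0.13 (edgeR adjusted p = 0.00014). Rpl3 was at 1410, 1350, 1280, 1560 and 1360 CPM with vehicle and 983, 935, 928, 671 and 465 CPM with IFNγ (−0.78 ± 0.22, edgeR adjusted p = 0.0071). Its IFNγ libraries of batches 2 and 3 were lower than those of batch 1, the opposite of their order in wild-type cells. Rpl36a fell by 0.77 ± 0.15 on the log2 scale (edgeR adjusted p = 0.00041).

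Rps6 was at 681, 654, 641, 648 and 606 CPM in knockout vehicle and 597, 543, 527, 586 and 273 CPM in knockout IFNγ libraries. The last, from batch 3, was far below the others, and the log2 difference of −0.38 ± 0.14 (edgeR adjusted p = 0.038) was lost in 10 of 32 settings. Rps23, a protein of the decoding centre, was at 694, 655, 677, 726 and 643 CPM with vehicle and 721, 557, 551, 1140 and 391 CPM with IFNγ, and was not called (−0.09 ± 0.16, edgeR adjusted p = 0.70). Its 2 extremes were the IFNγ libraries of batches 2 and 3. Rplp0, Rplp2, Rpl5, Rpl11, Rpl22, Rpsa, Rps3, Rpl14 and Rpl10a were called lower, at −0.43, −0.45, −0.58, −0.50, −0.50, −0.53, −0.44, −0.62 and −0.72 on the log2 scale. Rplp1, Rps27a, Rpl10, Rpl26 and Rps19 were not called, at −0.27, −0.26, −0.18, −0.10 and −0.36.

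The number called in knockout cells rested on the batches. It was 64 in batch 1 alone and 65 without batch 2, where 28.4% and 22.3% of all tested genes were called lower. It was 20 without a batch term and 6 in batches 2 and 3 alone, against 11.7% and 14.6% of all tested genes, so that in batches 2 and 3 the members did not exceed the background. Of the 11 transcripts kept as signs of RNA quality, 3 (27.3%) were called higher and none lower with IFNγ in knockout cells. Of all tested genes 21.4% were called higher and 21.8% lower, and the part of these transcripts in the result was not tested. The 4 endothelial markers summed to 214 to 365 CPM in knockout vehicle and 32.7 to 217 CPM in knockout IFNγ libraries, mostly from Kdr (means of 319 and 156 CPM), and their part in the result was not tested either.

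**Figure D2:**
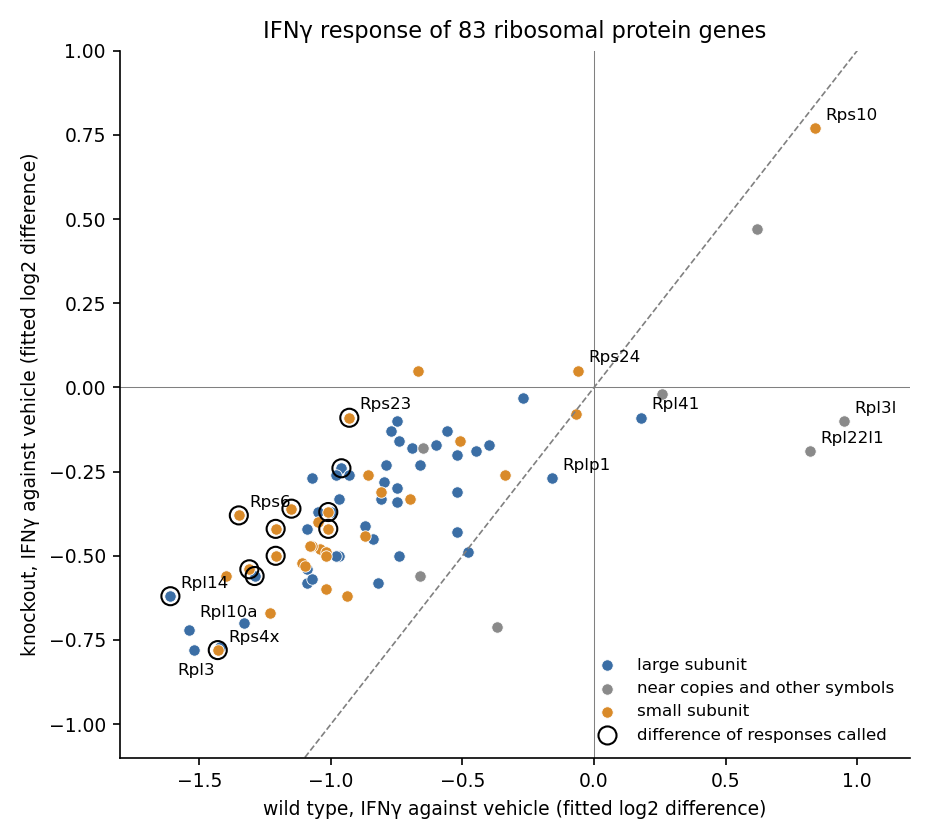
Fitted log2 difference of IFNγ against vehicle in wild-type cells (x axis) and knockout cells (y axis) for the 83 tested ribosomal protein genes, coloured by subunit, with the dashed line where both are equal and rings around the 12 members whose responses differed between the lines. Most points lie above the dashed line and left of 0, with medians of −0.87 in wild-type and −0.37 in knockout cells.

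Under vehicle, knockout and wild-type cells had near equal ribosomal protein levels as a whole, and single members stood out. Of 83 members 8 were called lower in knockout cells and 4 higher, against 14.8% and 12.5% of all tested genes, shares that the members did not exceed. The median log2 difference, knockout minus wild type, was 0.05 over the members and 0.03 over all genes. The lower members were Rpl11, Rpl14, Rpl22, Rpl29, Rps7, Rps14, Rps26 and Rpsa, and the higher ones Rpl7, Rpl21, Rpl22l1 and Rps23, some of them named after their values were seen.

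Rpl22 and its paralog Rpl22l1 lay in opposite directions. Rpl22 is an RNA-binding large subunit protein that cells can do without, and Rpl22l1 is a paralog that is known in other cells to rise when Rpl22 is lost. Rpl22 was at 414, 363, 411, 546 and 543 CPM in wild-type vehicle and 242, 219, 227, 291 and 256 CPM in knockout vehicle libraries. Every knockout library was below every wild-type library, and the log2 difference was −0.88 ± 0.12 (edgeR adjusted p = 1.2e-05). Rpl22l1 was at 1.94, 2.58, 1.01, 4.72 and 5.10 CPM in wild-type vehicle and 5.88, 6.71, 6.12, 10.7 and 9.66 CPM in knockout vehicle libraries. Every knockout library was above every wild-type library, and the log2 difference was 1.47 ± 0.28 (edgeR adjusted p = 0.00055). Within the 3 batches the log2 differences were −0.79, −0.91 and −1.09 for Rpl22 and 1.8, 1.17 and 0.91 for Rpl22l1.

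Rpsa was at 2350, 2220, 2480, 2500 and 2480 CPM in wild-type vehicle and 1510, 1440, 1370, 1360 and 1290 CPM in knockout vehicle libraries. The difference of −0.79 ± 0.14 on the log2 scale (edgeR adjusted p = 0.00028) was similar in each batch (−0.70, −0.88 and −0.94). Rpl11 differed by −0.69 ± 0.17 (edgeR adjusted p = 0.0044) and Rpl14 by −0.64 ± 0.18 (edgeR adjusted p = 0.0093), both without overlap between the groups. Among the higher members Rpl21 differed by 0.52 ± 0.17 (edgeR adjusted p = 0.022), Rps23 by 0.48 ± 0.16 (edgeR adjusted p = 0.036) and Rpl7 by 0.41 ± 0.13 (edgeR adjusted p = 0.023), also without overlap. Rps23 lost its call in 12 of 32 settings. With RLE size factors 10 members were lower and 3 higher, and in batches 2 and 3 alone none was called. These counts were not set against the share of all tested genes called in the same fits, so they do not describe the members alone. The endothelial marker list (4 genes, none at 0 in every library of a group) had sums of 25.2 to 38.4 CPM in wild-type and 214 to 365 CPM in knockout vehicle libraries, mostly from Kdr (means of 31.2 and 319 CPM), and its part in these differences was not tested.

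With IFNγ, ribosomal protein messengers were higher in knockout than in wild-type cells, relative to all other messengers. Of 83 members 47 were called higher, by 1.30-fold to 2.49-fold, and 2 lower, against 20% and 19% of all tested genes. The median log2 difference, knockout minus wild type, was 0.46 over the members and 0.01 over all genes, with 28 of 45 large and 19 of 31 small subunit genes called higher. Of the 11 transcripts kept as signs of RNA quality, 6 were lower in knockout IFNγ than in wild-type IFNγ libraries and none higher, and their part in the result was not tested.

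Rps23 had the largest difference. It was at 204, 269, 247, 389 and 212 CPM in wild-type IFNγ libraries, and with the knockout values given above, of which the lowest was 391 CPM, the groups lay side by side without overlap (1.32 ± 0.17, edgeR adjusted p = 4.4e-06). It was called in all 32 alternative settings. Rpl21 was at 275, 309, 318, 499 and 276 CPM in wild-type IFNγ and 771, 663, 662, 1390 and 473 CPM in knockout IFNγ libraries (1.21 ± 0.17, edgeR adjusted p = 1.2e-05). The groups overlapped only where the batch 2 wild-type library exceeded the batch 3 knockout library. Rps18 followed at 1.07 ± 0.18 (edgeR adjusted p = 0.00012), and Rps6 and Rpl7 were higher by 0.98 ± 0.15 and 0.96 ± 0.13 on the log2 scale.

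Rpl41 and Rpl22 were the members called lower in knockout cells with IFNγ. Rpl41 was at 343, 243, 249, 401 and 241 CPM in knockout IFNγ libraries (−0.72 ± 0.18, edgeR adjusted p = 0.0035), and lost its call in batch 1 alone. Rpl22 was at 221, 251, 241, 424 and 247 CPM in wild-type IFNγ and 182, 157, 161, 233 and 144 CPM in knockout IFNγ libraries (−0.64 ± 0.12, edgeR adjusted p = 0.00027). Its groups overlapped only at the batch 2 knockout library. Rpl22l1, at 3.19, 3.73, 2.75, 11.6 and 7.18 CPM in wild-type and 5.82, 4.08, 4.32, 20.8 and 5.29 CPM in knockout IFNγ libraries, was not called (0.46 ± 0.27). In batches 2 and 3 alone 1 member was called higher and 1 lower, and Rpl3, called higher over all libraries (0.77 ± 0.22), was at −0.26 there. The counts in that setting were not set against the share of all tested genes.

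The test of the difference between the responses asked whether IFNγ lowered these genes less in knockout than in wild-type cells. It called 12 of 83 members, all toward a smaller fall in knockout cells, and none the other way, against 3.64% and 2.86% of all tested genes. Among them were Rpl6, Rpl14, Rpl17, Rps4x, Rps6, Rps7, Rps15a, Rps16, Rps19 and Rps23, some of them named after their values were seen, and 9 of the 12 belong to the small subunit. Of the 83 members, 73 had a lower log2 difference in wild-type than in knockout cells. The difference of responses, knockout minus wild type, was below 0 for 10 of the 83 members and for 6656 of the 13755 tested genes. The median difference was 0.51 over the members and 0.02 over all genes. This comparison shares its libraries with the 4 above, so it is another reading of the same values and not a further sample.

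The largest were Rpl14 (0.99 ± 0.25, edgeR adjusted p = 0.021), Rps6 (0.96 ± 0.20, edgeR adjusted p = 0.0081) and Rps23 (0.84 ± 0.23, edgeR adjusted p = 0.034). Of 32 alternative settings, the call was lost in 4 for Rpl14, 2 for Rps6, 15 for Rps23, 17 for Rps19 and 20 for Rps4x. For Rpl14 the difference between the lines was already present under vehicle: knockout vehicle libraries were at 715, 695, 691, 756 and 782 CPM and knockout IFNγ libraries at 505, 482, 470, 735 and 254 CPM. With IFNγ both lines overlapped for Rpl14 (0.35 ± 0.18, edgeR adjusted p = 0.12). For Rps6 the vehicle levels were close (0.02 ± 0.14), and the lines separated with IFNγ except in the batch 3 knockout library. The number called depended on batch and library: it was 62 in batch 1 alone, 29 without batch 2, 31 without batch 3 and 0 in batches 2 and 3 alone. The share of all tested genes called in that direction was 29.7%, 7.89%, 6.75% and 0.728% in these settings. Leaving out single libraries gave 2 to 48, with 48 without replicate 5 of the knockout IFNγ group and 30 without replicate 4 of the wild-type IFNγ group. These counts were not set against the share of all tested genes in the same fits, so they do not show a change of the members alone.

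**Figure D3:**
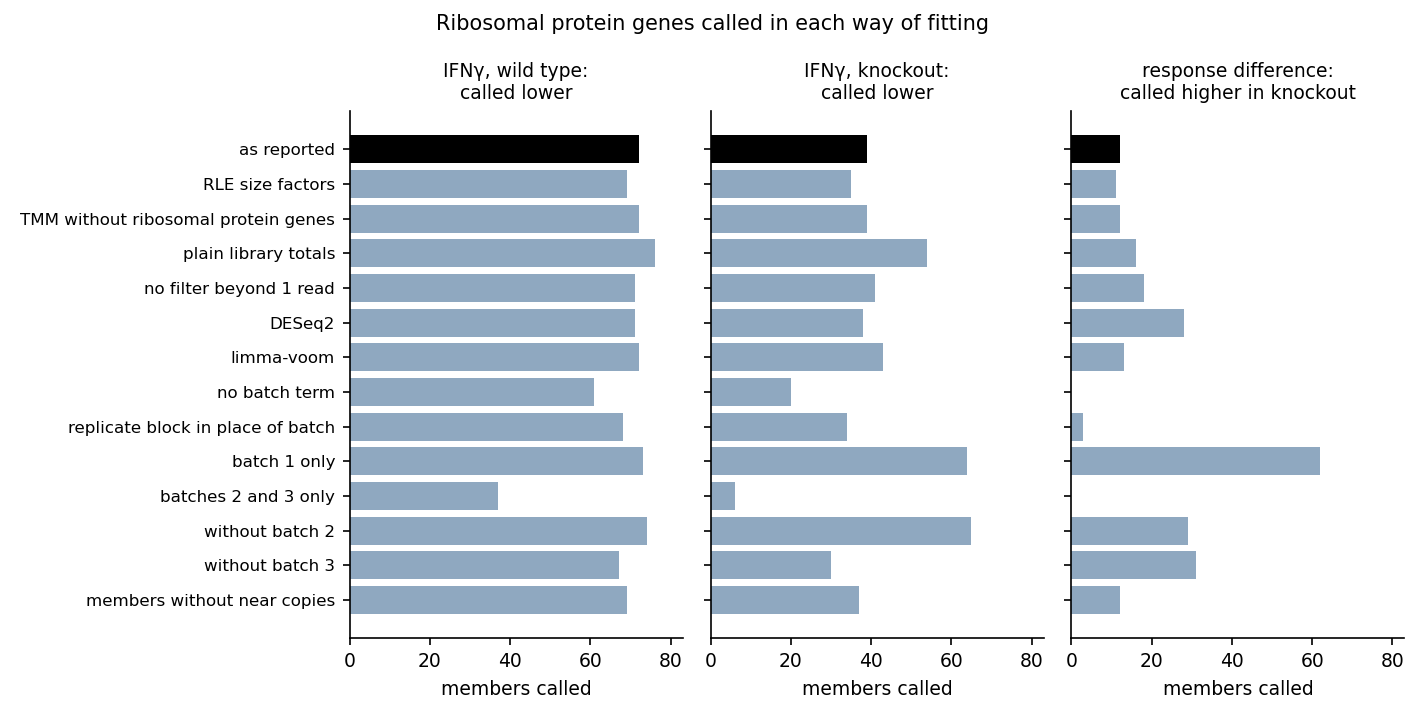
Number of ribosomal protein genes called (x axis) in the fit reported here (black bar) and in 13 alternative settings (blue bars), for the IFNγ response of wild-type cells, that of knockout cells and the difference of the responses. The wild-type count stays between 37 and 76, while the count for the difference of responses runs from 0 to 62.

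On TMM-scaled levels the batches disagreed on the size of the IFNγ response and, in knockout cells, on its direction. Within batch the median log2 difference over the members was −0.92, −0.49 and −1.18 in wild-type cells (batches 1, 2 and 3) and −0.40, 0.22 and −0.87 in knockout cells. In batch 2, 52 of 83 members were above 0 in knockout cells, while in batch 1 only 4 and in batch 3 only 3 were. Medians of all tested genes lay between −0.10 and 0.05 in these 6 cases. These differences depend on the size factors, which were 1.11 with vehicle and 0.892 with IFNγ in knockout batch 2. As a share of all counts the members fell there too, from 6.77% to 5.6%. In wild-type cells the share fell from 7.13% to 3.03% in batch 2 and from a mean of 5.58% to 2.94% in batch 1. The fall in share was thus larger in batch 2 than in batch 1, unlike the scaled medians. With IFNγ the knockout minus wild-type median was 0.58, 0.44 and 0.07 in batches 1, 2 and 3, and with vehicle it was 0.13, −0.03 and −0.14. Batches 2 and 3 hold 1 library of each group, so each of their values has no replicate, and batch and library cannot be told apart there.

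**Figure D4:**
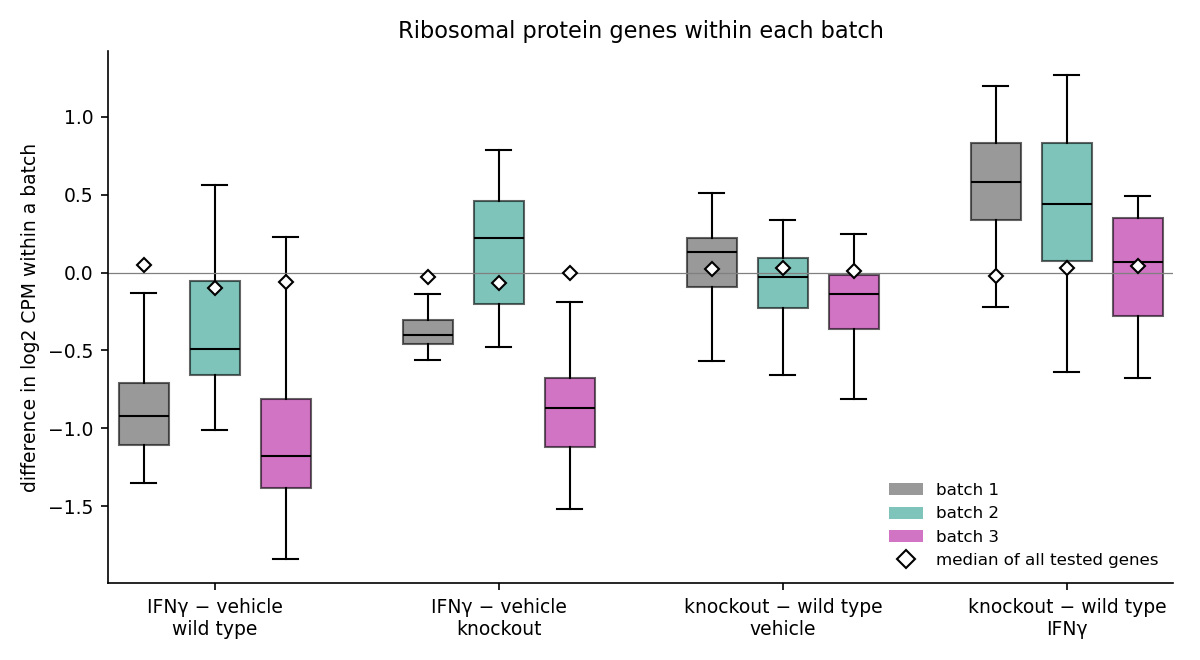
Differences in TMM-scaled log2 CPM within each batch for the 83 tested ribosomal protein genes, with boxes from the lower to the upper quartile, whiskers from the 5th to the 95th percentile of the members and diamonds at the median of all tested genes. Knockout cells with IFNγ in batch 2 have a median of 0.22, above 0, while the other 5 IFNγ boxes have medians from −1.18 to −0.40.

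A direct test of the IFNγ response in batches 2 and 3 against batch 1 called few members. In wild-type cells 5 members were called higher and none lower, against 16.2% and 19.4% of all tested genes, and in knockout cells 1 higher and 3 lower, against 13.2% and 15.8%. Rps10 was called in both lines (1.86 ± 0.50 and 1.38 ± 0.50 on the log2 scale), from a row with 1519 reads in all. The other wild-type calls were Rpl36al (3.13 ± 0.99, from 341 reads in all), Rpl41 (0.71 ± 0.27), Rps24 (0.61 ± 0.20) and Rplp0 (0.53 ± 0.18). In knockout cells Rpl3 (−0.87 ± 0.18), Rpl7l1 (−0.92 ± 0.19) and Rpl5 (−0.45 ± 0.16) fell further in batches 2 and 3. On plain library totals the test called 1 member higher and 32 lower in wild-type cells and 0 and 17 in knockout cells, with the medians of all tested genes at −0.78 and −0.36. The counts on plain totals were not set against the share of all tested genes called, so they do not show a change of the members alone. Batches 2 and 3 are pooled in this test, so members that moved in opposite directions in them average out.

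**Figure D5:**
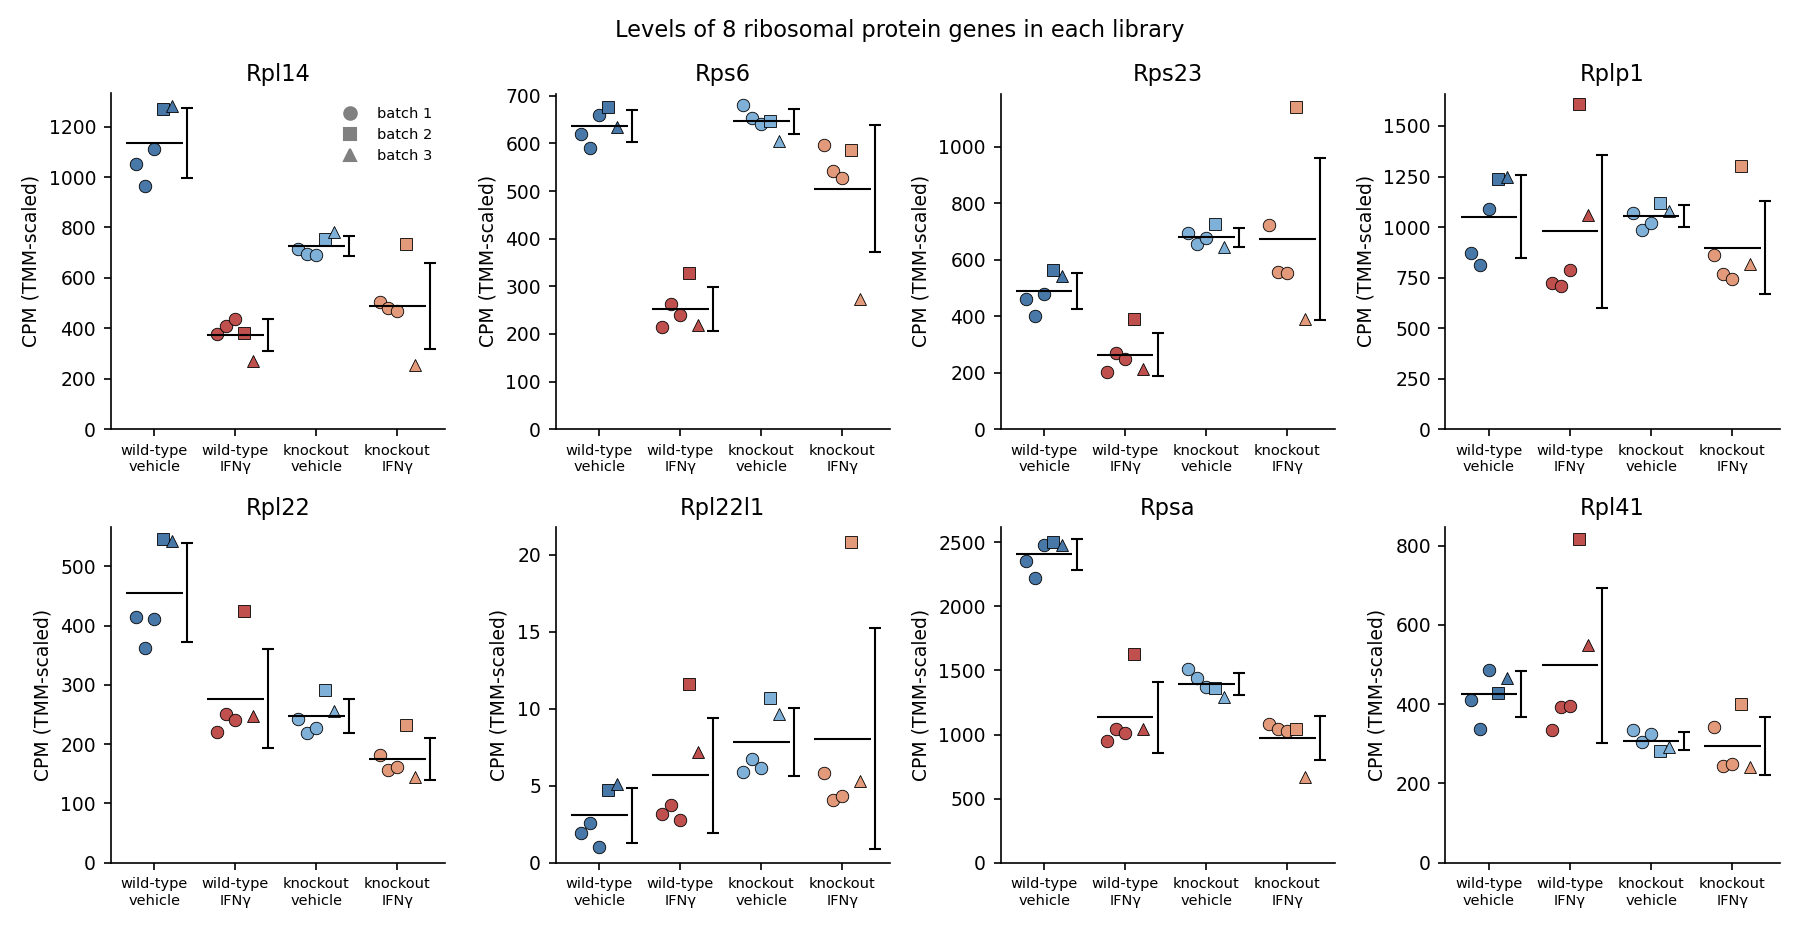
TMM-scaled CPM of 8 ribosomal protein genes in each of the 20 libraries by group, with the batch as the marker shape, the horizontal line as the group mean and the bar as 1 SD. Rpl14 and Rps6 fall in every wild-type IFNγ library, Rpl22 and Rpsa are lower and Rpl22l1 higher in every knockout vehicle library, and the batch 2 IFNγ libraries are high for Rplp1, Rpl22l1 and Rpl41.

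Of the 7 near copies and other symbols tested, 3 (42.9%) were called lower and 2 (28.6%) higher with IFNγ in wild-type cells. The shares of all tested genes were 29.9% and 29%, so the share called higher lay near the background. No subunit gene was called higher there. Rps27rt, from a row of 1205 reads, was 1 of the 3 called lower (−0.65 ± 0.24). Rps27l, a p53-inducible copy of Rps27, was at 190, 177, 193, 149 and 132 CPM in wild-type vehicle and 113, 117, 114, 101 and 85.6 CPM in wild-type IFNγ libraries, without overlap (−0.66 ± 0.13, edgeR adjusted p = 0.00019). It fell in knockout cells too (−0.56 ± 0.13, edgeR adjusted p = 0.0017), where Rps27 was not called (−0.16 ± 0.15), while in wild-type cells Rps27 was called at −0.51 ± 0.15. Rpl7l1, an assembly factor related to Rpl7, fell by 0.37 ± 0.15 in wild-type and 0.71 ± 0.15 in knockout cells on the log2 scale, and Rpl7 itself by 1.09 ± 0.13 and 0.54 ± 0.13. The wild-type call of Rpl7l1 was lost in 10 of 32 settings, and its difference in batch 3 was 0.10. Rps19bp1, which encodes a binding partner of Rps19 and not a subunit, was called in none of the 5 comparisons of groups.

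Rpl10l had no read in any library, and Rpl39l (19 reads) and Rpl24 (105 reads) did not pass the filter. Rpl24 encodes a core subunit, and its row at 0 to 1.42 CPM cannot stand for its level. Rps10, Rpl13a, Rpl23a and Rpl35 also had rows with few reads, 1519, 7882, 10978 and 19525 in all. Such genes have processed pseudogenes or near copies that can share reads, and how the authors' counting treated shared reads is not given in the sources used here; the values of these 4 genes are uncertain. Rows with a ribosomal protein symbol left out as pseudogenes or as not protein-coding together held 0.00587% to 0.0216% of counts. Pseudogenes under other symbols were not looked at, so this share does not measure the reads that such copies took.

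The members moved together over the libraries. The median pairwise correlation of log2 CPM between members was 0.77 over the 20 libraries and 0.75 after group and batch were taken out, given as a description, since members share libraries and their size factors. The interquartile range of their IFNγ responses in wild-type cells was 0.45 on the log2 scale, against 1.34 over all tested genes. Other genes of similar level were not compared, for this spread or for the correlations. Across members the wild-type response had a Spearman correlation of −0.39 with the mean log2 CPM and of −0.18 with the joined length of all annotated exons, where members are not independent replicates.

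Genes that make ribosomes were mostly lower with IFNγ too; of all tested genes 29.9% were called lower and 29% higher in wild-type and 21.8% and 21.4% in knockout cells. Of 48 genes of ribosome assembly and ribosomal RNA synthesis, 41 were called lower and 1 higher in wild-type cells (median −0.79) and 35 lower and 2 higher in knockout cells (median −0.68). Polr1b, a core subunit of RNA polymerase I, was at −1.74 ± 0.23 and −1.42 ± 0.23 in the 2 lines, and the nucleolar methyltransferase Fbl at −1.53 ± 0.15 and −1.05 ± 0.15. Sbds, which helps release Eif6 from the large subunit, was called higher in both (0.98 ± 0.17 and 0.62 ± 0.17). Under IFNγ 24 of the 48 were higher and 6 lower in knockout than in wild-type cells, against 20% and 19% of all tested genes.

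Among 20 other genes with a TOP tract, 16 were called lower and 1 higher in wild-type cells (median −0.76) and 13 lower and 1 higher in knockout cells (median −0.45), against the same shares of all tested genes as above. The elongation factor gene Eef1a1 had a mean of 11400 CPM in wild-type vehicle and 3460 CPM in wild-type IFNγ libraries (−1.74 ± 0.19, edgeR adjusted p = 3.1e-07). Vim, an intermediate filament gene counted among TOP genes, rose in both lines (1.41 ± 0.22 and 1.37 ± 0.22), and Tpt1 was not called (0.27 ± 0.20 and 0.26 ± 0.20). The scaffold protein Rack1, a small subunit component outside the naming rule, fell by 1.18 ± 0.13 in wild-type and 0.53 ± 0.13 in knockout cells on the log2 scale.

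Of 22 genes that control TOP messengers or S6 kinase, 7 were lower and 7 higher with IFNγ in wild-type cells and 7 lower and 4 higher in knockout cells, shares that lay near those of all tested genes (29.9% and 29% in wild-type, 21.8% and 21.4% in knockout cells) except for the lower ones in knockout cells (31.8%). The genes named here are examples and do not stand for the list. Rps6kb1, which encodes the S6 kinase that acts on Rps6, was called lower in both (−0.95 ± 0.10 and −0.56 ± 0.10), and Deptor, an mTOR inhibitor, fell from a mean of 45.9 to 2.70 CPM in wild-type and from 40.3 to 2.89 CPM in knockout cells. Larp1 was not called in either line (−0.25 ± 0.14 and −0.23 ± 0.14). Mtor was lower in knockout than in wild-type cells under vehicle (−0.76 ± 0.11, edgeR adjusted p = 3.1e-05) and IFNγ (−0.74 ± 0.11, edgeR adjusted p = 3.4e-05).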

How the data were processed

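The deposited table gives, per the labels and the values, raw read counts per Ensembl gene for 20 libraries of BV-2 cells. Per the submitters' processing notes, STAR, Trim Galore, FastQC and DESeq2 were used with the build GRCm39. The counting tool, strand setting and annotation were not given in the sources used here. All count columns matched a library. Symbols came from GENCODE on GRCm38 for 91.3% of rows, and start sequences from RefSeq (GRCm38.p6), so their coordinates are not those of the counts' build. Totals of 15866749 to 29157740 counts set the precision, and each fitted difference carries its standard error.

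With edgeR 4.0.16 (R 4.3.3), TMM factors were computed and rows filtered with filterByExpr over the 4 groups (13755 genes kept). Counts were fitted over all 20 libraries with robust quasi-likelihood models with group and batch as terms (14 residual degrees of freedom). For the test of batches 2 and 3 against batch 1, group was split by batch (11 residual degrees of freedom). P-values were adjusted by Benjamini-Hochberg over all tested genes, with a threshold of 0.05. "Fell", "rose", "lower" and "higher" refer to calls where a test is given. CPM are on TMM-scaled library sizes, except for Malat1 and the shares of counts, which use library totals. Within-batch differences used log2 CPM with a prior count of 2. The script was tested on simulated data.

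The members, lists and named genes were chosen with earlier results of these data known. Named were a panel, in each comparison the 3 called members with the largest change each way, and the members with the highest and lowest mean CPM. Rps4l of the panel had no row. Values of some called members are not reported here. Libraries of 1 number did not deviate together (r from −0.04 to 0.04 within batch 1), so numbers were not taken as pairs. No 2 replicates were copies: their chi-squared per degree of freedom was 3.54 or more. Alternatives were RLE factors, TMM without the members, library totals, no filter, DESeq2 1.42.0, limma-voom (limma 3.58.1), no batch term, replicate number as a block, batch 1 alone, batches 2 and 3 alone, each library left out, and other denominators for the shares. Leaving out batch 2, batch 3 or the near copies was added after seeing the data.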

Additional observations from a re-analysis of the deposited data

Results flagged for a closer look

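Some libraries lay far from the other 4 of their group. In 133 groups of 5 libraries (the named members and the share of counts in each group), the gap of the highest or lowest library to its nearest neighbour, divided by the group's range, passed Dixon's critical value of 0.71 in 29 cases; chance flags about 1 in 20 groups, and members of 1 library are not independent. Replicate 4 of the wild-type IFNγ group, its only library of batch 2, was the high one for Rpl10 (0.925), Rpl10a (0.908), Rpl5 (0.871), Rps4x (0.867), Rpsa (0.865), Rpl7 (0.853), Rpl22 (0.85), Rpl11 (0.837), Rpl36a (0.824), Rpl21 (0.806), Rplp2 (0.794), Rplp0 (0.776), Rps3 (0.763), Rps19 (0.744) and Rps27a (0.737), and the low one for Rpl7l1 (0.726). The CPM here are TMM-scaled, and the size factor of this wild-type library (0.635) was the lowest of all and raised all its CPM together. Its share of counts, 3.03%, lay within the 2.29% to 3.08% of its group. Replicate 4 of the knockout IFNγ group was high for Rpl22l1 (0.896), Rpl36al (0.83), Rpl39 (0.8), Rplp1 (0.792), Rpl26 (0.75) and Rplp2 (0.728). Replicate 5 of the knockout IFNγ group, from batch 3, was low for Rpsa (0.879), Rps4x (0.86), Rpl7 (0.807), Rps6 (0.786) and Rps27l (0.778). Replicate 4 of the knockout vehicle group was high for Rps4x (0.779) and Rpl21 (0.719).

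The response to IFNγ differed between the lines, by the edgeR test of the difference itself, for Rpl14 (0.99), Rps6 (0.96), Rps23 (0.84), Rps16 (0.79), Rps19 (0.79), Rpl6 (0.73), Rpl17 (0.72), Rps7 (0.71), Rps4x (0.65) and Rps15a (0.64) among others, given as log2 differences, knockout minus wild type. The call was lost in 15 of 32 alternative settings for Rps23, 17 for Rps19, 20 for Rps4x, 4 for Rpl14 and 2 for Rps6. The response differed between batches 2 and 3 and batch 1 in wild-type cells for Rpl36al (3.13), Rps10 (1.86), Rpl41 (0.71), Rps24 (0.61) and Rplp0 (0.53). In knockout cells it differed for Rps10 (1.38), Rpl7l1 (−0.92), Rpl3 (−0.87) and Rpl5 (−0.45).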

How the results depend on the processing

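The count of members called lower with IFNγ in wild-type cells (72) stayed within 1.5 times under each alternative except batches 2 and 3 alone (37, with 2 libraries a group); those called higher (2) were 0 on plain library totals, 1 without a batch term, 1 in batches 2 and 3 alone and 0 without the near copies. In knockout cells the 39 lower members became 20 without a batch term, 64 in batch 1 alone, 6 in batches 2 and 3 alone and 65 without batch 2. For knockout against wild type under vehicle, the 8 lower and 4 higher members became 14 and 26 in batch 1 alone (where 30% and 28.4% of all tested genes were called, so that the higher members lay near and the lower ones below the background), 0 and 0 in batches 2 and 3 alone, and 0 were higher without a batch term; with IFNγ, the 2 lower and 47 higher became 1 and 1 in batches 2 and 3 alone, where Rpl3 reversed (−0.26). The 12 members whose responses differed became 28 with DESeq2, 0 without a batch term, 62 (with 1 the other way) in batch 1 alone, 0 in batches 2 and 3 alone, 29 without batch 2 and 31 without batch 3. With the replicate number as a block in place of batch they became 3; no other count moved by over 1.5 times under the block, and the numbers were not taken to pair the samples. The test of batches 2 and 3 against batch 1 called 5 members in wild-type and 4 in knockout cells, 33 and 17 on plain library totals and 8 and 10 without the filter; it was not run without a batch term, with the block or in single batches. The share of counts in wild-type IFNγ libraries rose from 2.83% to 3.18% when the 10 largest other genes of each library left the denominator. Leaving out each library in turn gave 1 to 3 members higher with IFNγ in wild-type cells, 5 to 12 lower and 1 to 5 higher in knockout cells under vehicle, 2 to 48 (with 0 to 1 the other way) for the difference of responses, and 1 to 15 and 2 to 34 in wild-type and knockout cells for the test between batches; the lowest of the difference of responses was without replicate 5 of wild-type vehicle, and the highest of the last was without replicate 5 of knockout IFNγ. Calls over all tested genes also moved between settings, as the shares given for batch 1 alone show. Counts given here without the share of all tested genes in their setting were not set against a background and do not show a change of the members alone. The causes were not tested. Batches 2 and 3, with 1 library a group each, limit every statement on them.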
